A study of Homo sapiens with 6 samples.

Results

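Hedgehog pathway genes were examined for ZIC2 binding in human embryonic stem cells of the established line H1 (WA01) that lacked the zinc-finger protein ZNF263 (KO) and in wild-type H1 cells (WT). Binding was mapped by CUT&Tag, a method that brings a transposase to an antibody-marked protein so that the DNA around it is cut and tagged. Anti-ZIC2 libraries were made from KO cells (2 libraries), which the labels call a homogeneous ZNF263 knockout made with Cas9, and from WT cells (2 libraries), with 1 normal rabbit IgG library per genotype that was not analysed here. The labels do not say whether the knockout cells are 1 clone or whether the replicates were separate cultures. The deposited data are 1 list of ZIC2 regions per genotype on hg19, with positions only, so read depth is unknown, there is no replicate error and no test between genotypes was possible. Absence from a list says that no region was listed there, and does not measure how much signal was there. With no expression values in the lists, the cell type could not be checked against its markers.

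The 10 genes were SHH, PTCH1, SMO, GAS1, BOC, CDON, HHIP, GLI1, GLI2 and GLI3. A region was assigned to a gene when its nearest edge lay within 100 kb of the gene's hg19 start, which was given to the nearest 1 kb. The start was set without regard to alternative starts. Near these starts lay 28 of the 16077 different regions in both lists together, with 17 in the KO list of 7231 and 23 in the WT list of 12966. Regions found in both lists are called shared (12 near these starts), and the others KO-only (5) or WT-only (11). The edges of each of the 12 shared regions were the same in the KO as in the WT list, as were those of all 4120 shared regions of the lists, so that the width of a shared region is 1 value and not a measurement of each genotype.

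Hedgehog signalling starts when a secreted ligand such as Sonic hedgehog (SHH) binds the receptor PTCH1, which otherwise holds the membrane protein SMO inactive. Active SMO leads to the zinc-finger factors GLI1, GLI2 and GLI3, which switch target genes on or off. ZIC proteins, ZIC2 among them, carry zinc fingers related to those of the GLI factors, and inherited changes in either SHH or ZIC2 can cause holoprosencephaly, a failure of the forebrain to divide. PTCH1, GLI1 and HHIP are well known targets of the pathway in many tissues, and GAS1, BOC and CDON are co-receptors that help SHH bind.

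The promoter sequences of 4 members are shown because the regions nearest to their starts differed in class, and were picked after those values were seen. CDON, shown at the outermost of its 3 annotated starts, had a shared region over the start given for it. GAS1 had a WT-only region beside its start, and HHIP had no region within 100 kb in either list. PTCH1, shown at 1 of its 5 annotated starts, had a shared region upstream of the start given for it. Where that region lies relative to the PTCH1 window shown was not determined. Each run is the 250 bases before an annotated start, from RefSeq on GRCh38.p14, another build than that of the lists, and is printed 5′ to 3′. Capitals mark matches, on either strand, to GACCACCCA, a letter form of the GLI binding site, or to CCTGCTG, a short core of ZIC binding sites.
CDON, chr11:126063302-126063551, minus strand: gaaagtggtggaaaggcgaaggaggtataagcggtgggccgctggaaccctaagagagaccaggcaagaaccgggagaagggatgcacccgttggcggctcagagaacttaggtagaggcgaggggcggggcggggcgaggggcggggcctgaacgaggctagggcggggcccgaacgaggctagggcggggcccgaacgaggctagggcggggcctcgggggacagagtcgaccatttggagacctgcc
GAS1, chr9:86947507-86947756, minus strand: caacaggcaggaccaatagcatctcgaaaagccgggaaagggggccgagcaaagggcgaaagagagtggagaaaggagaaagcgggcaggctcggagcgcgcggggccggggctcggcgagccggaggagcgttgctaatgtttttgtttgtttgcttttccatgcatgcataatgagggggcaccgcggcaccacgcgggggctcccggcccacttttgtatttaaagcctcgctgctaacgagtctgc
PTCH1, chr9:95509267-95509516, minus strand: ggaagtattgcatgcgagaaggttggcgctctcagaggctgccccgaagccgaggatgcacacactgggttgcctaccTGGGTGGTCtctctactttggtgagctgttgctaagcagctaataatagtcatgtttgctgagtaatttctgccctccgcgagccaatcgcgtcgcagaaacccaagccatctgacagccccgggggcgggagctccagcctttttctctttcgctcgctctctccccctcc
HHIP, chr4:144645906-144646155, plus strand: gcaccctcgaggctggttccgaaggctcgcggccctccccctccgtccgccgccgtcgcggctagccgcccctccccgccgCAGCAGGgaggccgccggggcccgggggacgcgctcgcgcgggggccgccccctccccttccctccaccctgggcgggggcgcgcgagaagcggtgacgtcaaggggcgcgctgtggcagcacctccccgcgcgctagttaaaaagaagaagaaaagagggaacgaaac

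RefSeq windows were matched by symbol for 8 of the 10 genes, with 16 windows in all, and GLI1 and GLI3 were not matched. The PTCH1 window shown, 1 of 5 for this gene, held the GLI letters as TGGGTGGTC on the reverse strand, with the first base 172 bases before the start. No other member window held them, and 0.199% of all 35116 RefSeq windows did. HHIP held the short ZIC letters as CAGCAGG, 169 bases before its start, as did 8.48% of all windows. None of the 16 windows held the longer ZIC letters CCGCTGTG, found in 1.01% of all windows, and no matches overlapped each other. The shown CDON and GAS1 windows held none of the 3 letter forms. A match of letters is a description of these windows and not a measured site. The name of a letter form does not say that other factors, ZIC2 among them, cannot bind the GLI letters.

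A ZIC2 region lay within 100 kb of 6 of the 10 starts in the KO list and of 8 in the WT list. PTCH1, SMO, GLI1, GLI2, GLI3 and CDON had regions in both lists, SHH and GAS1 only in the WT list, and BOC and HHIP in neither. Across the genome, cut into consecutive windows of 200 kb, 27.6% of windows held a KO region and 41.7% a WT region. Windows are not gene starts and include unsequenced gaps, so these shares describe list density and are no expectation for genes. Counts per gene ran from 0 to 9 regions over both lists together, and GLI1 alone held 9 of the 28.

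**Figure D1:**
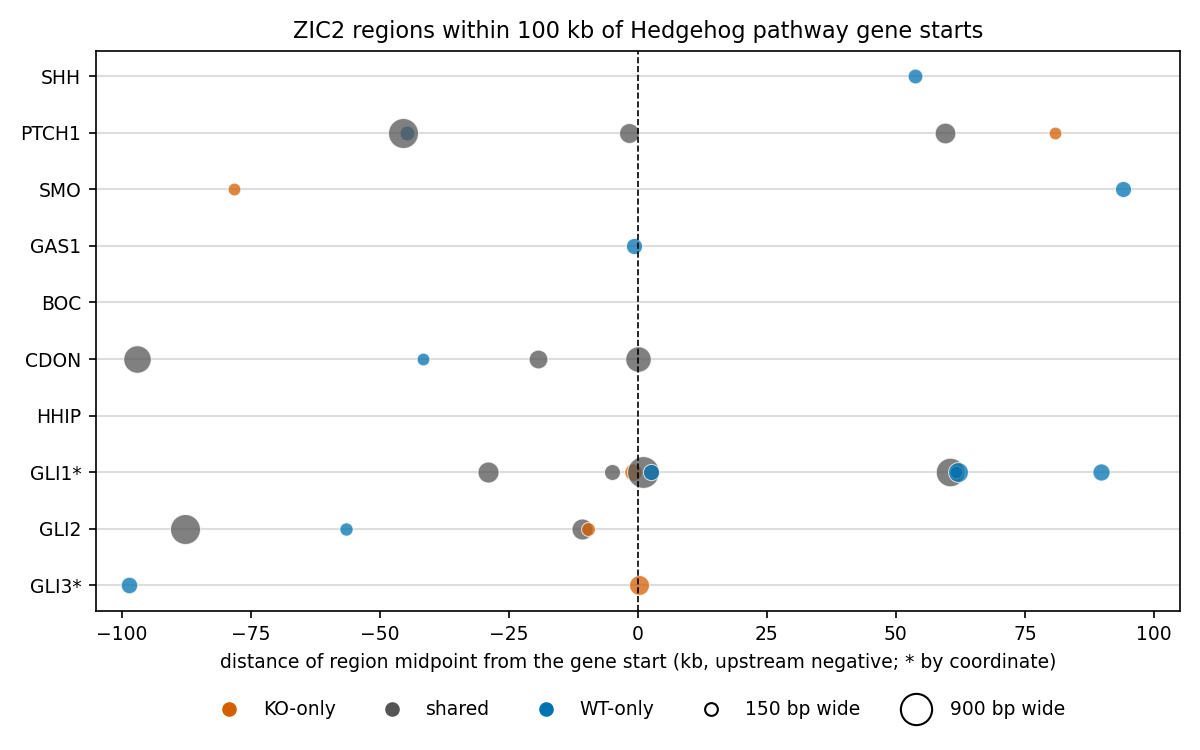
ZIC2 regions within 100 kb of 10 Hedgehog pathway gene starts, with the distance of the region midpoint from the start in kb (upstream negative, but by coordinate for GLI1 and GLI3, marked with an asterisk). Each circle is 1 region, with its area in proportion to width and its colour giving KO-only, shared or WT-only; GLI1 carries 9 circles, and BOC and HHIP carry none.

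The ligand gene SHH had 0 regions in the KO list and 1 in the WT list. The WT-only region, at chr7:155551160-155551361, was 202 bp wide and lay 53.6 kb downstream of the start. In RefSeq order, RBM33 is the neighbour on that side, and 1 other protein-coding gene lies within 100 kb of SHH. Which gene the region lies nearest to was not determined. The nearest KO region was 533 kb away. SHH had no region within 5 kb of its start in either list.

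PTCH1, the receptor that binds SHH, had 4 KO and 4 WT regions, of which 3 were shared. The shared region nearest the start, chr9:98271479-98271843, was 365 bp wide and began 1.48 kb upstream. The widest shared region at this gene, chr9:98315001-98315829, was 829 bp wide and lay 45.0 kb upstream, and was wider than 93.0% of all KO regions and 95.8% of all WT regions. A WT-only region of 202 bp, chr9:98314646-98314847, lay beside it with a gap of 153 bp. The third shared region, of 395 bp, was 59.3 kb downstream, and the 1 KO-only region, of 150 bp, was 80.8 kb downstream. The RefSeq table lists no other protein-coding gene within 100 kb of PTCH1, and its neighbours in order are FANCC and ERCC6L2. With 5 RefSeq windows at this gene and another build, the annotated start nearest to each region was not determined.

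SMO, the membrane transducer that PTCH1 holds inactive, had no shared region. Its KO-only region, chr7:128750722-128750871, was 150 bp wide and 78.1 kb upstream. Its WT-only region, chr7:128922838-128923075, was 238 bp wide and 93.8 kb downstream. Both were near the limit of 100 kb, and SMO had no region within 50 kb in either list. RefSeq places 2 other protein-coding genes within 100 kb of SMO.

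The co-receptor genes differed among themselves. CDON, which encodes a membrane protein of the immunoglobulin superfamily, had 3 KO and 4 WT regions, with 3 shared. A shared region of 600 bp, chr11:125932743-125933342, covered its start, and was wider than 79.3% of KO regions and 86.6% of WT regions. Shared regions of 325 bp and 696 bp followed at 19.3 kb and 96.7 kb upstream, and the WT-only region, of 150 bp, lay 41.5 kb upstream. No region lay downstream of the CDON start within 100 kb. The RefSeq table places 5 other protein-coding genes within 100 kb of CDON.

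GAS1, a co-receptor anchored in the outer membrane leaflet, had no KO region within 100 kb, and its nearest KO region was 570 kb away. In the WT list a region of 241 bp, chr9:89562659-89562899, lay 659 bases upstream of the start. The start is known to 500 bases, so that this region may lie nearer or farther by that much. BOC, the co-receptor most closely related to CDON, had no region within 100 kb. Its nearest KO region was 649 kb away, a shared region of 658 bp, and its nearest WT region was 106 kb away, a WT-only region of 267 bp just outside the limit.

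HHIP encodes a membrane protein that binds and sequesters hedgehog ligands. Its nearest KO region, 150 bp wide, was 325 kb away, and its nearest WT region, 544 bp wide, was 452 kb away. HHIP was the gene with the most distant WT region of the 10. Of the 3 members named above as well known pathway targets, PTCH1 and GLI1 thus had shared regions within 5 kb of the start. HHIP had no region within 100 kb.

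The GLI factors together held 9 KO and 12 WT regions, of which 6 were shared, 3 KO-only and 6 WT-only. GLI1, the factor whose own transcription is a common readout of the pathway, accounted for 5 KO and 8 WT regions. A group of 4 regions lay within 5 kb of its start and spanned 7.87 kb. In order of coordinate these were a shared region of 236 bp at 4.91 kb on the lower side, a KO-only region of 279 bp, a shared region of 929 bp, and a WT-only region of 242 bp at 2.48 kb on the higher side. The shared region chr12:57854649-57855577 was the widest of all 28 regions and wider than 95.9% of KO and 97.6% of WT regions. The KO-only region chr12:57852920-57853198 ended 802 bases before the start by coordinate, and 1450 bp separated it from the 929 bp region. The group thus held 3 KO and 3 WT regions, and both lists placed regions on either side of the start.

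The other GLI1 regions lay farther out. A shared region of 407 bp was 28.9 kb away on the lower side. On the higher side a shared region of 751 bp lay at 60.0 kb, with WT-only regions of 150 bp and 363 bp at 61.5 kb and 61.9 kb, and a WT-only region of 271 bp at 89.6 kb. The RefSeq table places 10 other protein-coding genes within 100 kb of GLI1, the most of any member, and 0 near GLI2, GLI3, PTCH1, GAS1 and HHIP. Which of these genes the farther regions lie nearest to was not determined.

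GLI2, the main activator of the pathway in mouse embryos, had 3 KO and 3 WT regions, all upstream of the start given for it. Shared regions of 827 bp and 407 bp lay at 87.3 kb and 10.6 kb. A KO-only region of 176 bp, chr2:121545200-121545375, lay on the start side of the 407 bp region with a gap of 835 bp, at 9.62 kb from the start. A WT-only region of 163 bp lay at 56.4 kb. No region of either list lay within 5 kb of the GLI2 start as given, and all distances are to that start. GLI2 has 2 RefSeq windows, ending at chr2:120735867 and chr2:120792280 on the plus strand of GRCh38.p14. Regions called upstream here may thus lie within the gene or near an annotated start farther upstream. Where they lie relative to each annotated start was not determined.

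GLI3, which in the absence of ligand is cut to a repressor, had 1 KO and 1 WT region. The KO-only region, chr7:42277002-42277366, was 365 bp wide and began 2 bases from the start as given, within its rounding. The WT-only region was 251 bp wide and lay 98.4 kb away on the lower side, close to the limit. Within 5 kb of the start, GLI3 had a KO-only region alone and GAS1 a WT-only region alone, whereas CDON, PTCH1 and GLI1 had shared regions there. Both single-list regions were narrower than the median shared region. Within their own lists they were of middling width, the GLI3 region wider than 54.6% of KO regions and the GAS1 region wider than 47.7% of WT regions. With no read counts it is not known how far signal in the other genotype fell short of a call.

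**Figure D2:**
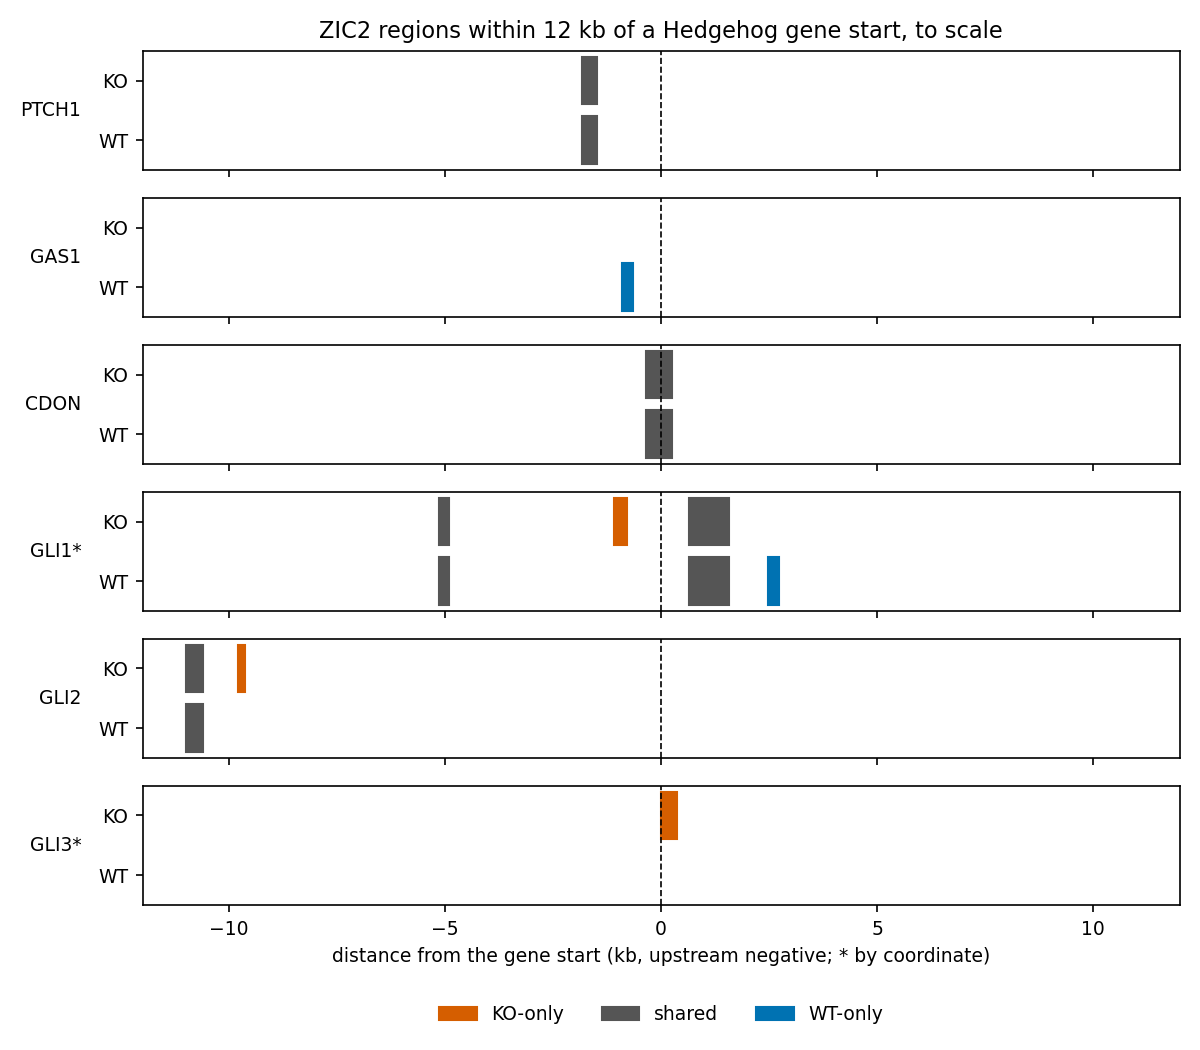
ZIC2 regions within 12 kb of the start at the 6 genes that had any, drawn to scale with KO above WT, against distance from the start in kb (by coordinate for GLI1 and GLI3). Grey regions are in both lists, and a coloured region is in 1 list, as the KO-only region at GLI3 and the WT-only region at GAS1.

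Regions near the starts were found in both lists in 12 of 17 KO regions (70.6%, 95% interval 44.0 to 89.7) and 12 of 23 WT regions (52.2%, 30.6 to 73.2). Over all regions the shares were 57.0% of KO regions and 31.8% of WT regions. Both intervals, which are Clopper-Pearson intervals, include the share over all regions, that for WT regions only near its lower end. So at this limit, with this many regions, neither share was set apart from that over all regions. Other limits moved the WT share to 66.7% (50 kb) and 39.4% (200 kb). Counting edges within 1 kb as shared gave 65.2% of WT regions, beside 36.5% over all WT regions. No interval was computed for those settings, so the limit of 100 kb alone does not settle whether the WT share differs. The intervals cover counting error only and treat neighbouring regions as independent. Conversely, 5 of 17 KO regions (29.4%) were KO-only, beside 43.0% of all KO regions, and 11 of 23 WT regions (47.8%) were WT-only, beside 68.2% of all WT regions. Of the 16 regions found in 1 list, 31.2% (11.0 to 58.7) were KO-only, beside 26.0% of all such regions. There were 73.9 KO regions per 100 WT regions near these starts and 55.8 over all.

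**Figure D3:**
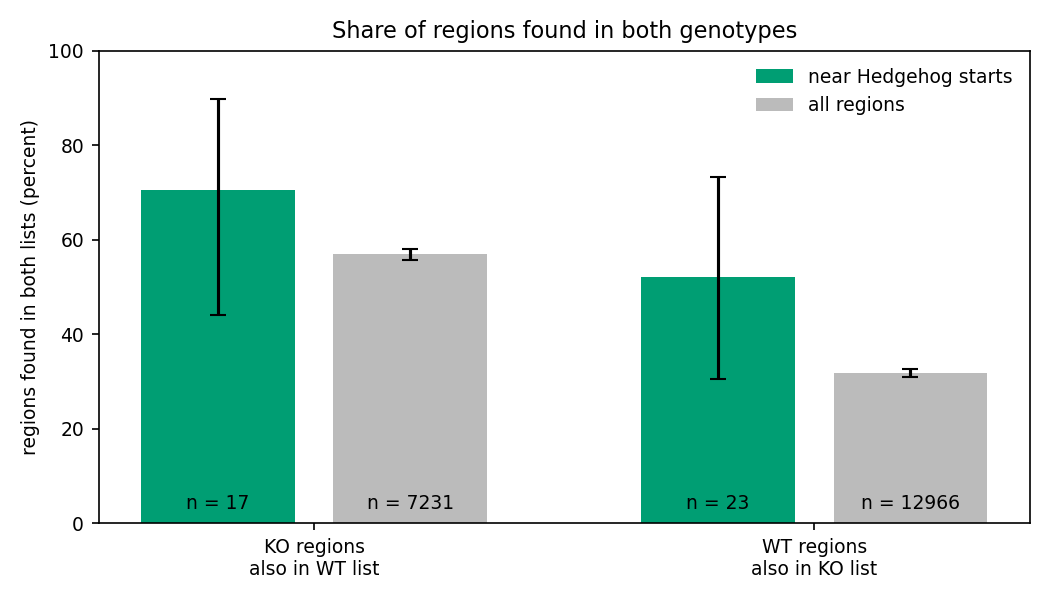
Percent of regions found in both lists, for KO regions and for WT regions, near the 10 Hedgehog starts (green) and over all regions (grey), with 95% Clopper-Pearson intervals. The intervals near Hedgehog starts, from 44.0 to 89.7 for KO regions and from 30.6 to 73.2 for WT regions, include the grey values of 57.0 and 31.8.

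The shared regions were spread over 4 genes, with 4 at GLI1, 3 at PTCH1, 3 at CDON and 2 at GLI2. Without GLI1 the shares were 66.7% of 12 KO regions and 53.3% of 15 WT regions. With the limit set at 200 kb they were 68.4% and 39.4%. Within 10 kb of a start lay 7 KO and 6 WT regions, as 3 KO-only, 4 shared and 2 WT-only regions. Beyond 10 kb lay 10 KO and 17 WT regions, as 2 KO-only, 8 shared and 9 WT-only regions. The median distance from the start was 19.4 kb for KO regions (95% interval of the median 1.66 to 60.4) and 45.4 kb for WT regions (10.8 to 61.6). Without GLI1 these medians were 32.4 kb for KO regions and 45.4 kb for WT regions, and with regions of 150 bp left out they were 10.8 kb and 45.4 kb. These intervals overlap, and the lists share 12 regions. The regions just inside the limit of 100 kb were those at 98.4 kb of GLI3 and 96.7 kb of CDON, and those just outside it were at 106 kb of BOC and 118 kb of GLI1.

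**Figure D4:**
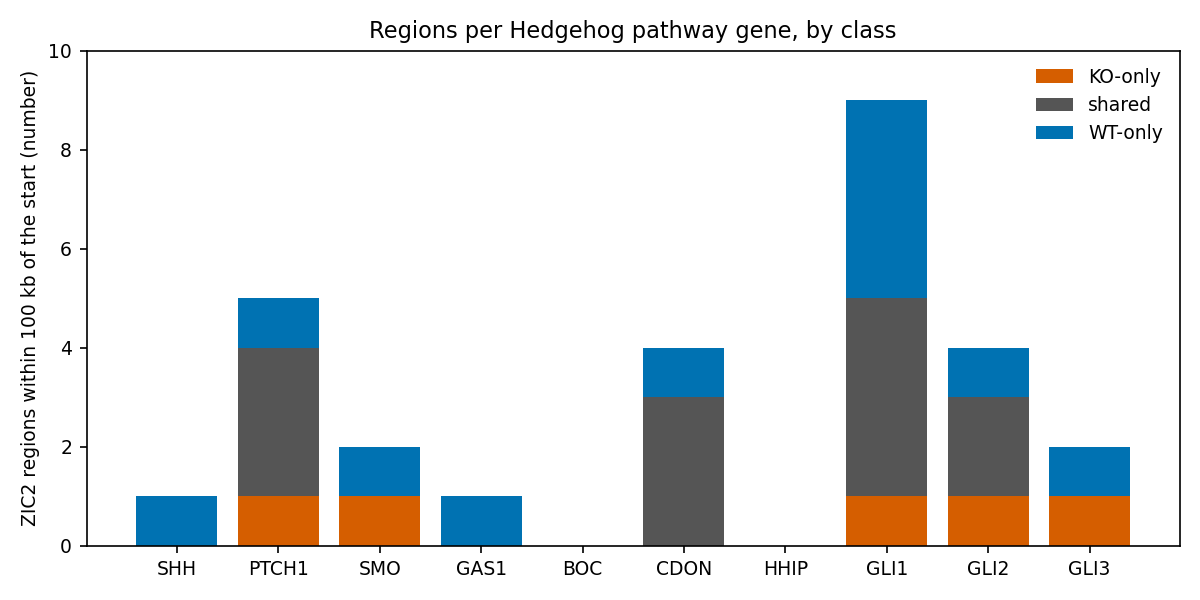
Number of ZIC2 regions within 100 kb of each Hedgehog pathway gene start, stacked as KO-only, shared and WT-only. GLI1 has 9 regions and PTCH1 5, and BOC and HHIP have 0.

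Shared regions were wider than most regions found in 1 list near these starts, with overlapping ranges. Every shared region has the same edges in both lists, and how the lists came to share edges is not given. Whether that processing also set the width of shared regions was not tested, so this difference in width may not describe binding. The 5 KO-only regions ranged from 150 to 365 bp with a median of 176 bp, the 12 shared regions from 236 to 929 bp with a median of 504 bp, and the 11 WT-only regions from 150 to 363 bp with a median of 238 bp. Over all regions the medians of these classes were 167, 460 and 181 bp. The 5 widest regions near the starts, of 929, 829, 827, 751 and 696 bp, were all shared and lay at GLI1, PTCH1, GLI2, GLI1 and CDON. By list the median width was 395 bp for the 17 KO regions and 325 bp for the 23 WT regions, beside 335 and 250 bp over all KO and WT regions. Width and being in both lists go together over all regions, and the part of width in the shares given above was not tested.

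**Figure D5:**
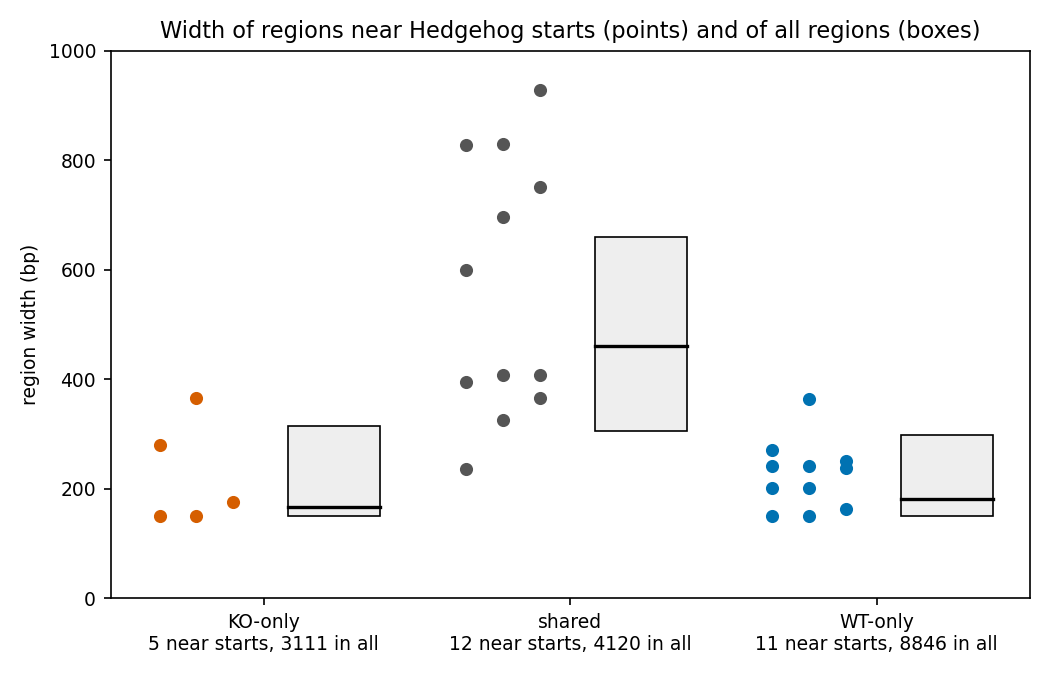
Width in bp of the 28 regions near Hedgehog starts (points) by class, beside all regions of that class (box from the lower to the upper quartile, line at the median). Shared regions reach 929 bp, and neither KO-only nor WT-only regions near these starts exceed 365 bp.

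Close grouping was seen at GLI1. Of the 28 regions, 7 (25.0%) had at least 2 other regions within 10 kb, beside 8.88% of all 16077 regions, and all 7 were at GLI1. At least 1 other region within 10 kb was found for 11 regions (39.3%, beside 32.3% of all), the further 4 being pairs at PTCH1 and GLI2. Regions of a group share their neighbourhood and are not independent. Of 15271 windows of 200 kb, which include unsequenced gaps, 0.701% held as many as 9 regions of both lists together. GLI1 had the highest count of the 10 genes and was singled out after the counts were seen. It also has the most other protein-coding genes within 100 kb of any member, 10.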

How the data were processed

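Per the labels, ZIC2 was profiled by CUT&Tag in 2 KO and 2 WT libraries. The authors deposited 1 list per genotype with 3 columns and no other value, the chromosome, start and end of each region, and the lists name the genotype as the sample titles do. The submitters' processing notes name Bowtie2, Picard and the build hg19. Not given in the sources used here are the peak caller and its threshold, the part played by IgG, and the way from 2 libraries to 1 list, so depth and precision are unknown.

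Members and lists of genes were chosen with earlier results of these data known. Starts were taken from the hg19 positions given for the 10 genes. An overlap of 1 bp or more made a KO and a WT region shared. Counts, widths and distances were computed with Python 3.11.15, numpy 2.4.6 and scipy 1.17.1, and plotted with matplotlib 3.10.9. Only the assignment of regions to starts and classes was tested on simulated data, in which shared regions had identical edges. Distances to regions are to the nearest edge, and medians of distance use midpoints. Every member was named whatever its values. No genotype test was made. RefSeq tables (GRCh38.p14) gave neighbours for 10 of 10 genes and strand and promoter windows for 8, by symbol, without coordinates being carried between builds. Sequences of the regions and the other pathway genes were not analysed here, for want of an hg19 genome and annotation. Motif letters and the setting without GLI1 were chosen after seeing the data. Coordinates count from 1.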

Additional observations from a re-analysis of the deposited data

How the results depend on the processing

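Of 86 values under alternatives for 11 results, 82 kept within the interval or within 1.5 times the count reported. The intervals are wide with this many regions, so keeping within them is a weak requirement. Shifts of the starts by 500 bases are also small beside the limit of 100 kb. Within 50 kb of a start there were 11 KO and 12 WT regions, and 5 genes had a KO region and 5 a WT region, so that the difference between 6 and 8 genes was not present at that limit. Without GLI1 there were 15 WT regions. Requiring 50% reciprocal overlap moved nothing, since shared regions have identical edges. Counting edges within 1 kb as shared gave 76.5% of KO and 65.2% of WT regions in both lists, beside 63.4% and 36.5% over all regions. With the WT list cut to the length of the KO list by width, a choice that favours shared regions, these were 70.6% and 66.7%, beside 52.0% and 52.0% over all regions. Limits of 50 and 200 kb gave 72.7% and 68.4% of KO regions and 66.7% and 39.4% of WT regions. No paired analysis was possible because the lists hold no values per library, and leaving out a replicate could not be run either. Without read counts, a region just short of a call looks the same as an unbound one.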

Other observations

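From 100 to 200 kb of the starts lay 11 further regions, 1 KO-only, 1 shared and 9 WT-only, which is 2 KO and 10 WT regions. Over all regions, 43.0% of KO regions were KO-only and 68.2% of WT regions WT-only. SHH had 3 of the WT-only regions, of 194, 293 and 167 bp, in a row from chr7:155750569 to 155752508, 146 to 147 kb upstream of its start. PTCH1, GLI2, GAS1 and BOC each had 1 region at these distances, and GLI1 and CDON had 2 each. The 1 shared region, of 234 bp, lay 148 kb upstream of CDON, and the 1 KO-only region, of 168 bp, lay 191 kb downstream of PTCH1.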
